A study of Homo sapiens with 13 samples.

Results

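Preconditioned AC16 cells that had received no uncoupler were compared with control AC16 cells across all genes. The comparison took the 4 libraries labelled preconditioning and the 3 labelled control, which is 7 of the 13 libraries of the series. AC16 is a human line that came from fusing adult ventricular muscle cells to immortal fibroblasts, and the labels call its cell type myocyte. The design text describes cells that express a construct named mOpto, which the title ties to light-driven conditioning of mitochondria. In the other 6 libraries the protonophore FCCP, which lets protons leak across the inner mitochondrial membrane, was added. Every library carries the genotype wildtype in the labels. Whether control cells held the construct or were lit, how long the light lasted and how long after it the cells were taken do not appear in the labels. The construct, the light and the conditioning cannot be told apart in this comparison. Poly-A selected RNA was counted per gene, and the 7 libraries held 15426614 to 19342485 gene counts. Nothing in the labels says that libraries of a group came from separate cultures, so each p-value measures no more than how these libraries vary, which may be technical variation.

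As background, animal cells sense sterols in the membrane of the endoplasmic reticulum. When sterols there are low, the escort SCAP carries the precursors of the transcription factors SREBF1 and SREBF2 (the SREBP proteins) to the Golgi, where the proteases MBTPS1 and MBTPS2 release their active parts. INSIG1 and INSIG2 hold SCAP back when sterols are plentiful. Active SREBPs raise the genes of cholesterol and fatty acid synthesis and of lipoprotein uptake, and INSIG1 itself. The respiratory chain, in turn, is built from 13 proteins encoded by mitochondrial DNA and many more from the nucleus, most of them short proteins with short mRNAs.

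The control libraries were not alike. Reads aligned to several places made up 11.5% and 8.44% of reads in control 1 and 2 but 4.00% in control 3, against 3.16% to 3.78% with preconditioning. On the first principal component of the 7 libraries, which held 55.7% of the variance, control 1 and 2 lay at −85.5 and −76.2, control 3 at 4.55 and the preconditioning libraries at 34.4 to 43.5. Control 3 was set apart from all others on the second component (18.3%), at −73.4 against 7.81 to 17.9. Levels also followed transcript length. In the shortest of 4 equal length classes of genes (longest transcript 53 to 2006 nt), the median deviation from each gene's mean was 0.29 and 0.28 log2 CPM (the gene's counts relative to the scaled library total) in control 1 and 2, 0.06 in control 3 and −0.19 to −0.14 with preconditioning. In the longest class the order was turned round, with −0.25, −0.26 and −0.07 in control 1 to 3 and 0.08 to 0.21 with preconditioning. The part of the share of multiply aligned reads and of length in the results below was not tested, and neither can be told apart from the treatment where only control 1 and 2 differ. Values against control 3 alone and against control 1 and 2 are therefore given for the main lists and for some single genes.

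**Figure D1:**
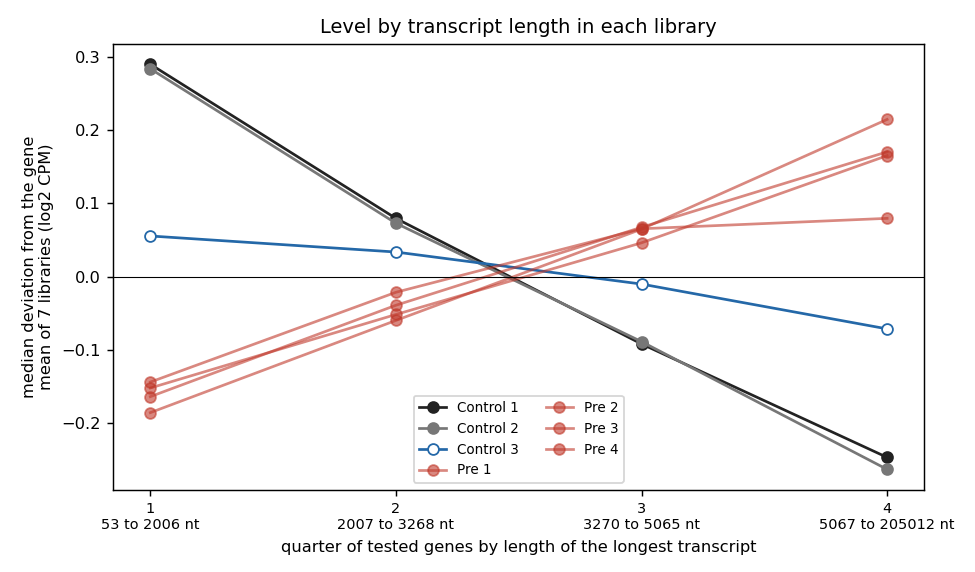
Median deviation of log2 CPM from each gene's mean over the 7 libraries (y axis), for 4 equal classes of tested genes by the length of their longest transcript in nt (x axis), 1 line per library. Control 1 and 2 fall from 0.29 and 0.28 in the shortest class to −0.25 and −0.26 in the longest, the preconditioning libraries (Pre 1 to 4) rise from between −0.19 and −0.14 to between 0.08 and 0.21, and control 3 lies between them.

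Markers of heart muscle were mostly absent from all 7 libraries. Of 30 cardiomyocyte markers 11 passed the expression filter, 22 stayed under 1 CPM in every library, and 5 that define the cell type, MYH6, MYH7, MYL2, TNNT2 and CASQ2, had no read at all. Most of the summed marker level, which was 264.7 to 445.2 CPM in control and 463.1 to 514.7 CPM with preconditioning, came from ATP2A2, a calcium pump that many cell types express (mean 311.3 and 472.9 CPM). All 15 fibroblast markers and all 10 smooth muscle markers were tested, and their summed levels overlapped between groups, at 7615 to 14699 against 9748 to 10371 CPM and at 347.8 to 768.6 against 540.8 to 619.6 CPM. Endothelial markers summed to between 201.5 and 353.2 CPM in control and between 237.9 and 321.5 CPM with preconditioning. Most of that came from ENG alone (mean 227.7 and 224.8 CPM). Immune cell markers summed to under 7 CPM in every library. No member of the smooth muscle or immune lists was called, the cardiomyocyte and fibroblast lists had 1 gene higher and 1 lower each, and 2 endothelial genes rose. The part of these levels in the results was not tested. VIM, the intermediate filament protein of mesenchymal cells, was the fibroblast marker that fell (−1.62 ± 0.41, SE throughout), and the call was lost without control 1 or control 2. DDR2, a collagen receptor on the same list, rose (0.88 ± 0.27) and was lost without any of 5 libraries.

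Calls are genes whose adjusted p lay under 0.05 in the quasi-likelihood test of edgeR. Of 16756 genes tested, 1765 rose with preconditioning (10.5%) and 2185 fell (13.0%), together 23.6%. Of the calls 44.7% were higher, or 55.2% with library totals as scaling. Changes of at least 1 on the log2 scale were seen in 635 of the rises and 1287 of the falls, and the median over all tested genes was −0.02. The libraries of the groups did not overlap for 3255 genes that were higher (19.4%) and 2900 that were lower (17.3%). A call was named held where it kept its direction and its call without each of the 7 libraries in turn and with the split at the share of multiply aligned reads as a term in the fit. That was true of 196 rises (1.17% of tested genes) and 213 falls (1.27%), 2.44% together. Called genes named below without a stated loss need not have held. MBTPS2, ETFB, SSBP1, APOO, RHOT2, IDH1, SLC2A1, TXN, HSPB1 and EGFR, for example, lost their calls with the split as a term. The median longest transcript was 5333.5 nt for genes that rose, 2020 nt for genes that fell and 3268 nt for all tested genes. Once each library had been freed of a trend on length and GC content, 864 of the rises and 1263 of the falls remained called, as did 359 of the 394 held genes that have a length and GC value.

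**Figure D2:**
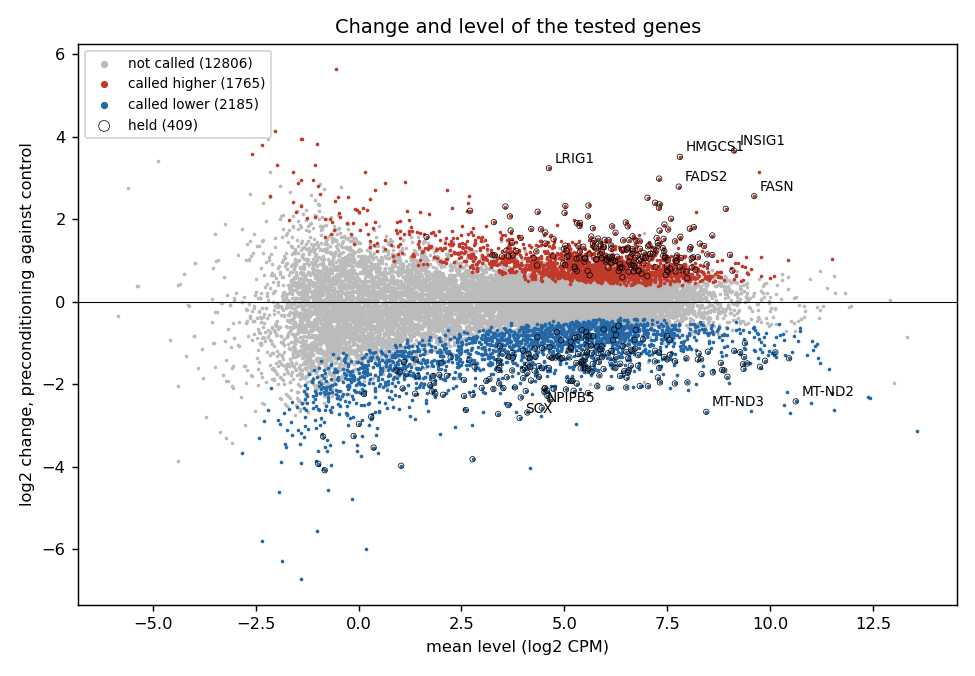
Each point is 1 of 16756 tested genes, by the mean of both groups' levels (x axis, log2 CPM) and the log2 change of preconditioning against control (y axis). Red points are the 1765 genes called higher, blue points the 2185 called lower, grey points those not called, and the 409 held calls (kept without each library in turn and with the library split as a term) are ringed; INSIG1, HMGCS1 and LRIG1 are the highest of the ringed points with symbols shown.

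Cholesterol synthesis moved as a near-complete pathway. Of 10 mevalonate pathway enzymes 8 rose, 7 of them held, 1 fell and 1 was not called, with a median log2 change of 1.59. Of 12 enzymes from squalene to cholesterol 9 rose, 7 of them held, and none fell, with a median of 1.35. These shares, 80% and 75%, stand beside 10.5% of all tested genes. Both medians stayed near these values whichever controls were used, at 1.71 and 1.47 against control 3 alone and 1.497 and 1.23 against control 1 and 2.

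Promoters are shown for the regulators INSIG1 and SREBF2 and for FDPS and HSD17B7, the sterol enzymes whose window holds a form of the sterol regulatory element, since these genes rose together. Each is the stretch of 250 bases up to the start of the gene in RefSeq on GRCh38.p14, 5′ to 3′, and capitals mark matches on either strand to TCACNCNAC (a form of the sterol regulatory element, which SREBPs bind) and to CCAAT (the box bound by the factor NF-Y; ATTGG is its reverse).
INSIG1 (chr7:155297628-155297877, plus strand): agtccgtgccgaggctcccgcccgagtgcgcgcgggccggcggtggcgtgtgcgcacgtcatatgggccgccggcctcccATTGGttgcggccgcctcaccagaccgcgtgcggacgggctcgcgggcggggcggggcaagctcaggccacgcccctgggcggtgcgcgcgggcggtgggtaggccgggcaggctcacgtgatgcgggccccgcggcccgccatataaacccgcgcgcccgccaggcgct
SREBF2 (chr22:41832855-41833104, plus strand): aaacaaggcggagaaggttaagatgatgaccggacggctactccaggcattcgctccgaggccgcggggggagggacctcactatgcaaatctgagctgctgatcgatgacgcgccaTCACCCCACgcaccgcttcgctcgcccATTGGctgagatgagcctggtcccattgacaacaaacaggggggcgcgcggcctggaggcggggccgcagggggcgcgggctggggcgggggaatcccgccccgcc
FDPS (chr1:155308616-155308865, plus strand): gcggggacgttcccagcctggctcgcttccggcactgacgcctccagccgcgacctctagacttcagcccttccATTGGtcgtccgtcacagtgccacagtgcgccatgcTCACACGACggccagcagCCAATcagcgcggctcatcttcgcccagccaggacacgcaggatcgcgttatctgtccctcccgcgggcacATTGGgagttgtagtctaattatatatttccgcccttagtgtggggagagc
HSD17B7 (chr1:162790452-162790701, plus strand): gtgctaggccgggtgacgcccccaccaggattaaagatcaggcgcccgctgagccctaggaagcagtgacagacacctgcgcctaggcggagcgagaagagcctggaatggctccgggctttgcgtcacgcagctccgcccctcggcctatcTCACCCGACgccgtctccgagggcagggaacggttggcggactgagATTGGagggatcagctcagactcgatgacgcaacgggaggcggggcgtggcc
SREBF2 held TCACCCCAC at −133 from the start, FDPS TCACACGAC at −140 and HSD17B7 TCACCCGAC at −98, while INSIG1 had no match to that form and an ATTGG at −170. Over 300 bases that run 50 past the start, TCACNCNAC was found in 2.55% of 35116 RefSeq entries, in 3.30% of 11753 tested genes with an entry, in 5.10% of 157 held rises and in 2 of the 17 sterol enzymes with an entry. CCAAT was found in 34.6%, 42.5% and 52.9% of the first 3 of these sets and in 15 of the 17 sterol enzymes. TCACNCNAC was in 4.05% and CCAAT in 44.1% of the 1456 called rises with an entry. For the 1466 called falls with an entry the shares were 3.34% and 41.7%. The motifs do not overlap each other in the windows shown. The stricter TCACNCCAC, in 1.13% of entries, was in none of the 17. These are counts of letters in a window and show no binding.

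HMGCS1, which makes the HMG-CoA that enters the pathway, stood at 33.3, 46.9 and 27.8 CPM in control 1 to 3 and at 483, 464, 230.4 and 472 CPM in preconditioning 1 to 4. Preconditioning 3 was the lowest of its group and still far above every control library. The change was 3.52 ± 0.42 (edgeR adjusted p = 0.000596).

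The thiolase ACAT2 (control 27.98 to 42.9 CPM, preconditioning 129 to 150.4 CPM) rose by 1.92 ± 0.27. FDFT1, which commits farnesyl units to sterols, went from between 107 and 133 CPM to between 355 and 440.3 CPM (1.77 ± 0.28). IDI1 (1.59 ± 0.27), FDPS (1.58 ± 0.25), MVD (1.37 ± 0.27) and MVK (1.21 ± 0.28) also rose. The MVK call did not hold. The kinase PMVK was not called (0.30 ± 0.24). GGPS1, which takes farnesyl units away from sterols to make geranylgeranyl groups, was the member that fell (−0.93 ± 0.27). It stood at 19.7 and 17.5 CPM in control 1 and 2 but at 8.07 CPM in control 3, within 7.54 to 8.63 CPM of the preconditioning libraries, and its call was lost without control 1 or 2 or without preconditioning 1, 2 or 3.

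In the later steps, the cyclase LSS stood at 63.5, 89.4 and 69.0 CPM in control and 298, 279, 266 and 242 CPM with preconditioning (1.87 ± 0.25). DHCR7, the last reductase of one branch, was among the steadiest genes in control, at 51.7, 52.8 and 51.1 CPM. With preconditioning it was at 282, 276, 226 and 283 CPM, a change of 2.36 ± 0.37. The demethylating oxidase MSMO1 rose from between 37.9 and 64.9 CPM to between 182 and 299 CPM (2.28 ± 0.34). The epoxidase SQLE, a control point of the pathway, rose by 1.48 ± 0.24. CYP51A1 rose by 2.90 ± 0.66 from a low level, 0.172 to 1.19 CPM in control against at most 5.002 CPM with preconditioning. The CYP51A1 call did not hold. EBP (−0.38 ± 0.28), TM7SF2 (0.25 ± 0.34) and ERG28 (0.16 ± 0.23) were not called.

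Of 15 genes that sense sterols or regulate SREBPs, 8 rose and none fell (median 0.94). INSIG1 had the largest held rise of all tested genes with at least 5 mean CPM in a group and no overlap. It was at 94.0, 115 and 35.2 CPM in control and at 1150, 1103, 702 and 1182 CPM with preconditioning, 3.67 ± 0.62. INSIG2, which is not an SREBP target, was at 58.8, 64.5 and 20.7 CPM in control and 25.7 to 38.8 CPM with preconditioning, so the groups overlapped and it was not called (−0.62 ± 0.32). SREBF2, the factor of the sterol genes, rose by 1.41 ± 0.28 (184, 209.7 and 119.9 against 460.3, 472, 387 and 499.96 CPM), and SREBF1, that of the fatty acid genes, by 0.94 ± 0.24. The lipin LPIN1 rose by 1.49 ± 0.19 and the site-2 protease MBTPS2 by 1.20 ± 0.23. The escort SCAP (0.53 ± 0.19) and the site-1 protease MBTPS1 (0.39 ± 0.17) were not called.

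Fatty acid synthesis rose beside it. Of 24 genes for making, lengthening, desaturating and activating fatty acids, 15 rose, 6 of them held, and 2 fell (median 0.73). The synthase FASN stood at 192, 223 and 264 CPM in control and at 1726, 1441, 885 and 1312 CPM with preconditioning (2.56 ± 0.43). The desaturase FADS2 stood at 52.5, 78.9 and 34.8 CPM in control and at 435, 408, 319 and 374 CPM with preconditioning (2.79 ± 0.44). In both genes every preconditioning library was above every control library, as the rule for the largest rises required. Preconditioning 3 was the lowest of its group in each. SCD, which puts the first double bond into saturated fatty acids, was at 173, 292 and 53.4 CPM in control and 1178 to 1763 CPM with preconditioning. Its change of 3.14 ± 0.63 was 4.82 against control 3 alone and 2.69 against control 1 and 2, and the call did not hold. ACSL3, which activates fatty acids for lipid droplets, rose by 2.01 ± 0.22, the carboxylase ACACA by 1.42 ± 0.22 and the citrate lyase ACLY by 1.13 ± 0.17. TECR, the last reductase of elongation (−0.76 ± 0.21), and ELOVL3 (−1.93 ± 0.59) fell. ELOVL3 was under 1.5 CPM in every library, the TECR call was lost without control 1 or 2 or preconditioning 1, and that of ELOVL3 without 5 of the 7 libraries.

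Genes that take lipoproteins up rose and 1 efflux pump rose with them. Of 15 lipoprotein receptors and genes of lysosomal cholesterol export 8 rose and none fell (median 0.81, and 0.40 with the length and GC trend taken out). The receptors LRP8 (2.07 ± 0.30) and LRP10 (1.43 ± 0.25) rose and held. NPC1, which exports cholesterol from lysosomes, rose by 0.93 ± 0.32, though by 0.32 against control 3 alone, and the HDL receptor SCARB1 was not called (0.05 ± 0.15). Of 11 tested genes of cholesterol efflux and of the sterol-activated receptor LXR, 4 rose and 1 fell (median 0.09). ABCA1, the pump that loads cholesterol onto apolipoprotein A1, was at 3.15, 5.04 and 6.57 CPM in control and at 27.7, 22.6, 16.9 and 15.5 CPM with preconditioning (2.07 ± 0.30). LPCAT3, which puts unsaturated chains into phospholipids, rose by 2.31 ± 0.45 and ABCA5, another transporter of the family, fell by 0.94 ± 0.21 on the log2 scale, a call that was lost without control 1.

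Outside lipid genes, the largest held rise was that of LRIG1, a membrane protein that promotes the breakdown of growth factor receptors. It was at 3.44, 2.91 and 7.82 CPM in control and at 47.4, 48.5, 43.3 and 39.4 CPM with preconditioning, 3.24 ± 0.45. Its relatives LRIG2 (−0.32 ± 0.26) and LRIG3 (0.17 ± 0.30) were not called. TMEM154, a membrane protein, had its highest control level in control 3, with 12.5, 8.86 and 26.3 CPM in control and 64.0 to 99.7 CPM with preconditioning (2.34 ± 0.43). Of the 10 largest rises 7 are described here, in order INSIG1, HMGCS1, LRIG1, FADS2, FASN, DHCR7 and TMEM154.

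**Figure D3:**
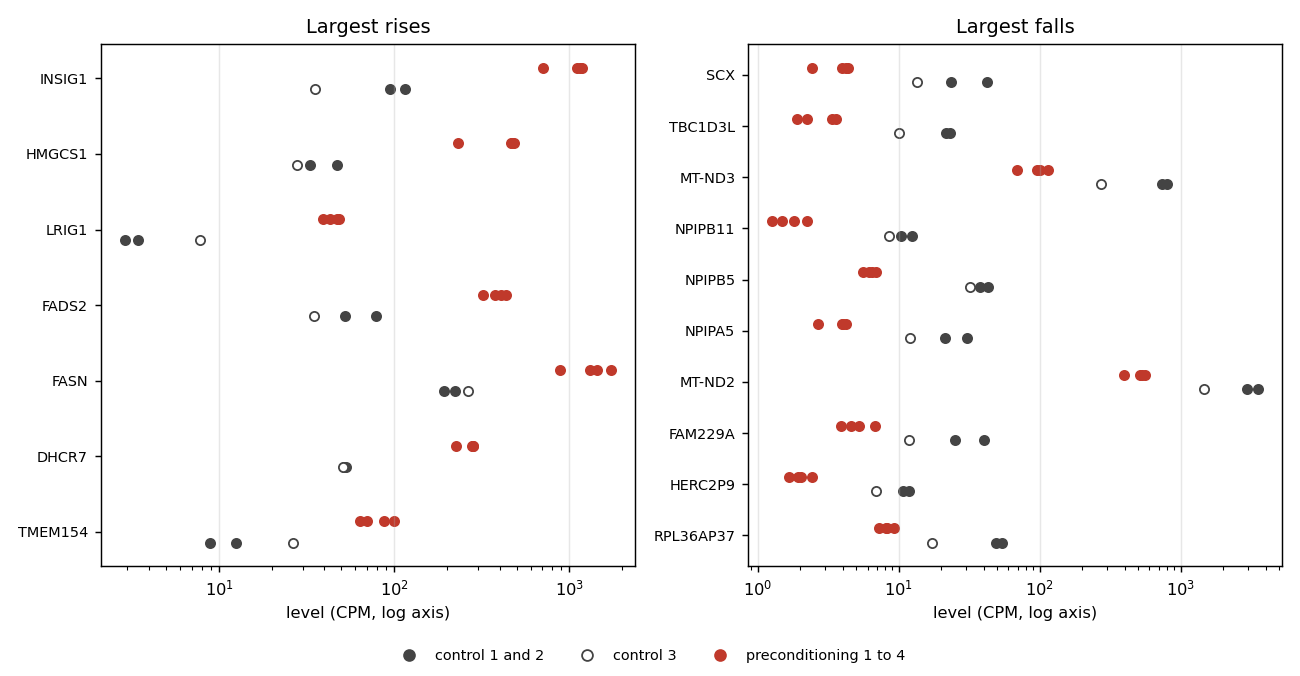
Level of 7 of the 10 genes with the largest held rise (left) and the 10 with the largest held fall (right), 1 point per library on a log axis of CPM; dark points are control 1 and 2, open points control 3 and red points preconditioning 1 to 4. The rule that chose these genes required the 4 red points to lie on 1 side of all 3 control points. Control 3 is the control nearest to the red points in all 10 falls and for LRIG1, FASN and TMEM154. It is the farthest for INSIG1, HMGCS1, FADS2 and DHCR7.

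The largest held falls were mixed. SCX, a transcription factor of tendon cells, was at 42.4, 23.4 and 13.4 CPM in control and at 2.43 to 4.37 CPM with preconditioning (−2.82 ± 0.39). TBC1D3L, NPIPB11, NPIPB5 and NPIPA5, at −2.72 to −2.51, and HERC2P9 and RPL36AP37, each at −2.28, are members of repeated gene families or pseudogenes. Their counts depend on how reads that fit several copies were treated and are uncertain, and the share of multiply aligned reads differed between the libraries as given above. FAM229A fell by 2.32 ± 0.38. The other members of the 10 were MT-ND2 and MT-ND3, subunits of complex I encoded in the mitochondrion.

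RNA from mitochondrial DNA was lower with preconditioning. Mitochondrial genes held 9.58%, 8.95% and 3.00% of gene counts in control 1 to 3 and 1.47%, 1.49%, 1.00% and 1.85% in preconditioning 1 to 4. The means were 7.18% ± 3.63 (SD, n = 3) and 1.45% ± 0.35 (SD, n = 4). No library of one group overlapped the other, and an exact two-sided permutation test gave p = 0.0571, the smallest that 3 against 4 libraries allow. Of 13 mitochondrially encoded mRNAs 11 fell, with a median of −2.33, while MT-CO1 (−1.97 ± 0.72) and MT-ATP8 (−0.61 ± 0.74, under 1 CPM in every library) were not called. Only MT-ND2 and MT-ND3 held. MT-ND2 was at 2942, 3545 and 1475 CPM in control and at 511, 529, 394 and 557 CPM with preconditioning (−2.42 ± 0.46), and MT-ND3 at 738, 801 and 272 against 100.3, 114, 69.2 and 96.0 CPM (−2.67 ± 0.47). Here control 3 lay between the other controls and the preconditioning libraries, and the list median was −0.83 against control 3 alone and −2.72 against control 1 and 2. The 12S and 16S ribosomal RNA genes, MT-RNR1 (−2.70 ± 0.63) and MT-RNR2 (−3.14 ± 0.78), fell as well, in libraries selected for poly-A RNA. The share also varied among like-labelled libraries elsewhere in the series. It ran from 1.55% to 6.49% with FCCP alone and from 1.33% to 6.42% with preconditioning plus FCCP. Fewer mitochondria, less mitochondrial RNA in each and a difference in how libraries were made cannot be told apart in such counts.

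Nuclear genes of the respiratory chain were lower in the same libraries. No subunit of any complex rose. Of 37 complex I subunits 23 fell (median −0.70), of 14 genes of complexes II and III with cytochrome c 7 fell (−0.55), of 12 nuclear complex IV subunits 9 fell (−1.12) and of 18 genes of the ATP synthase 13 fell (−0.88). COX6A1, a complex IV subunit, was at 57.7, 45.5 and 14.1 CPM in control and at 7.80 to 9.83 CPM with preconditioning (−2.15 ± 0.35), with −0.69 against control 3 alone and −2.57 against control 1 and 2. NDUFB1 of complex I was at 78.9, 64.8 and 25.6 CPM in control and at 13.97 to 16.8 CPM with preconditioning (−1.92 ± 0.31), with −0.79 and −2.28 in the same order. UQCRB of complex III fell by 1.84 ± 0.35 and the stalk subunit ATP5PD by 1.63 ± 0.28. In all 4 genes control 3 was the control nearest to the preconditioning libraries. Of 42 assembly factors 14 fell and none rose, with the copper chaperone COX17 at −2.05 ± 0.34. The calls of single genes held for 1 gene of complex I, 1 of complexes II and III, 1 of complex IV, 2 of the ATP synthase and 3 assembly factors.

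Ribosomal protein genes showed the same pattern. Of 46 large-subunit genes 32 fell and none rose (median −0.81), 9 of them held, and of 32 small-subunit genes 20 fell and none rose (median −0.66), 5 of them held. RPL23 was at 1238, 1188 and 537 CPM in control and at 303 to 349 CPM with preconditioning (−1.63 ± 0.29), and RPS18 at 2140, 2585 and 1372 against 748 to 822 CPM (−1.37 ± 0.26). Of 76 mitochondrial ribosomal proteins 36 fell, among them MRPL18 (−1.61 ± 0.23) and MRPL32 (−1.78 ± 0.27), and MRPL49 alone rose (0.69 ± 0.18, lost without control 1). Sm, LSm and other small spliceosome proteins fell in 21 of 31 cases with none higher (median −0.76), SNRPF at −1.55 ± 0.28. The genes of these lists are short, with a median longest transcript of 1985 nt for the large subunit, 1575 nt for the small, 1333 nt for complex I and 1183 nt for complex IV, and 25.8% of all tested genes in the shortest length class fell (median −0.51) while 1.53% rose. With the trend on length and GC content taken out, 22 of 46 and 13 of 32 ribosomal genes, 17 of 37 complex I, 8 of 12 complex IV and 10 of 18 ATP synthase genes were called lower. The medians were then −0.63, −0.46, −0.61, −0.85 and −0.69, against −0.03 over all genes. Mitochondrial ribosomal proteins then had 20 lower and 3 higher (median −0.24), and the small spliceosome proteins 12 lower (median −0.45). The trend used the longest transcript, which need not be the one expressed, so these counts and medians do not settle what is left after length. Single genes went both ways. With the trend taken out UQCRB (longest transcript 5575 nt) went from −1.84 to −2.04 and RPL23 (3081 nt) from −1.63 to −1.64. RPL35 (785 nt) went from −1.43 to −0.77. Ribosomal protein genes also share sequence with many pseudogenes, so their levels are less certain.

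**Figure D4:**
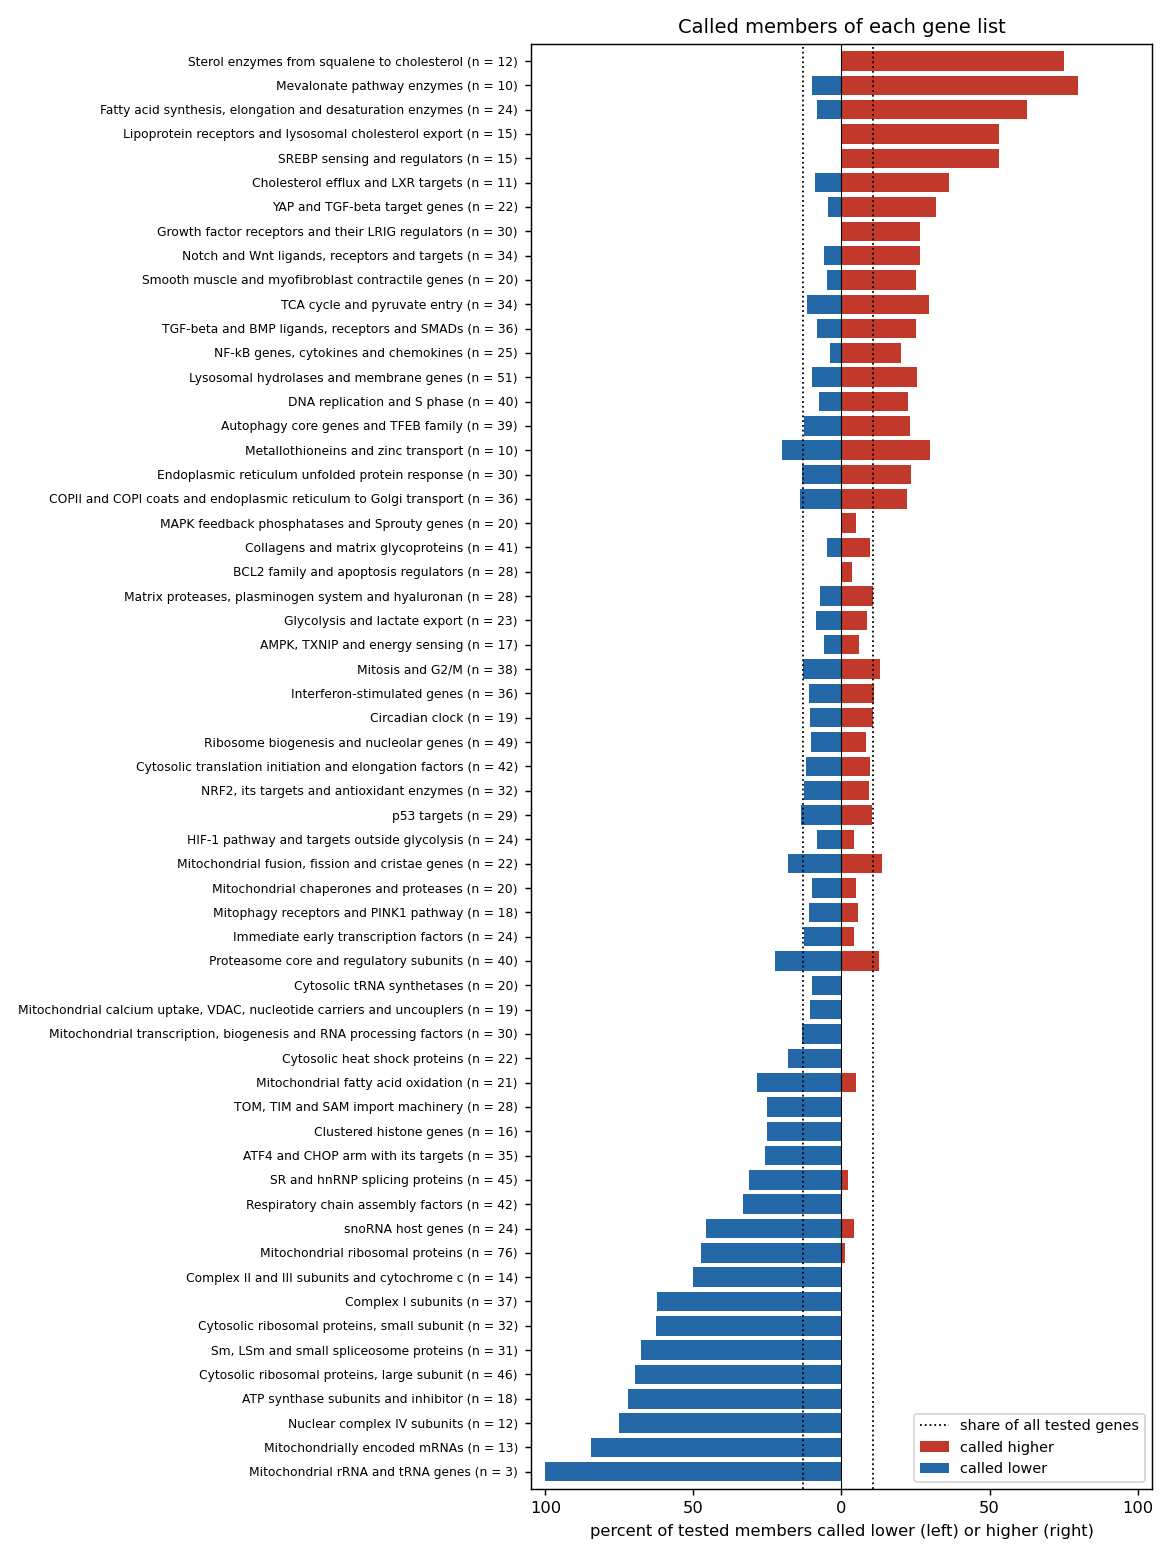
Share of the tested members of each gene list called lower (blue, to the left) and higher (red, to the right), with the number tested in brackets; dotted lines mark the 13.0% lower and 10.5% higher of all tested genes. The sterol, fatty acid, uptake and SREBP lists stand at the top, and ribosomal, respiratory chain and mitochondrially encoded genes at the bottom.

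Other mitochondrial functions were mixed. List counts from here on stand beside 10.5% higher and 13.0% lower of all tested genes. Several lie near or under these shares and do not set their list apart. Examples, higher and lower, are mitophagy (5.56% and 11.1%), glycolysis (8.70% each), interferon-stimulated (11.1% each) and collagen and matrix genes (9.76% and 4.88%). Others lie above, such as 29.4% higher in the list of the TCA cycle and pyruvate entry. Of 21 genes of fatty acid oxidation 6 fell and 1 rose (median −0.19). CPT1A, which admits long chains to the mitochondrion, was at 22.2, 23.6 and 47.6 CPM in control and at 9.73, 12.8, 9.94 and 9.82 CPM with preconditioning (−1.56 ± 0.31). The very long chain dehydrogenase ACADVL was at 862, 784.5 and 949.9 CPM in control and at 348 to 394 CPM with preconditioning (−1.22 ± 0.19). Both held, and both were as far or farther below control 3 as below the other controls. ETFB, which passes on the electrons, fell by 1.12 ± 0.23, and CPT2 on the inner membrane rose (1.00 ± 0.26, lost without control 1).

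Among 18 mitophagy genes 1 rose and 2 fell. PINK1, the kinase that marks depolarized mitochondria, was at 11.7, 14.1 and 15.6 CPM in control and at 39.1, 39.5, 46.6 and 33.2 CPM with preconditioning (1.52 ± 0.26, edgeR adjusted p = 0.00237), and the call held. The receptor FUNDC1 fell (−1.11 ± 0.25, lost without control 1), as did the transport GTPase RHOT2 (−0.82 ± 0.19). BNIP3, a receptor that low oxygen raises, was not called (−0.59 ± 0.37), with 540.2, 697 and 191 CPM in control and 216 to 436 CPM with preconditioning. Among 20 mitochondrial chaperones and proteases HSPE1 (−2.12 ± 0.32) and SPG7 (−0.79 ± 0.18) fell and AFG3L2 rose (1.18 ± 0.26). HSPE1 held, while SPG7 and AFG3L2 lost their calls with the library split as a term (edgeR adjusted p = 0.0764 and 0.0742). HSPE1 and HSPD1 encode the partners of one folding chamber. HSPE1 was at 71.3, 50.9 and 38.4 against 10.6 to 14.4 CPM, while HSPD1 was at 328, 372 and 1054 CPM in control and at 525 to 693 CPM with preconditioning (0.00 ± 0.32).

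Of 30 genes of mitochondrial transcription, biogenesis and RNA processing none rose and 4 fell (median −0.07), among them the DNA-binding SSBP1 (−0.86 ± 0.17). These falls are 13.3% of the list, beside 13.0% of all tested genes. The coactivator PPARGC1A (0.89 ± 0.44, at 1.32 CPM or less in every library) and the mitochondrial DNA packaging factor TFAM (0.16 ± 0.21) were not called. Of 22 fusion, fission and cristae genes 3 rose and 4 fell. MFN2, a fusion GTPase, rose (0.53 ± 0.15), lost without control 1 or 2 or preconditioning 1. MIEF1 (0.76 ± 0.26, lost without any of 6 libraries) and CHCHD3 (0.65 ± 0.16, lost without control 1) rose too, while APOO (−1.04 ± 0.19) and MICOS13 (−0.99 ± 0.26) of the cristae complex fell, the latter lost without control 1 or 2, and OPA1 was not called (0.21 ± 0.15). Of 28 import genes 7 fell and none rose, DNAJC19 at −1.17 ± 0.16. Of 19 genes of calcium uptake, outer membrane pores, nucleotide carriers and uncouplers VDAC3 (−0.74 ± 0.21) and SLC25A14 (−0.55 ± 0.18) fell, each lost without 5 or 6 of the libraries, and UCP2 was not called (0.08 ± 0.42). In the list of the TCA cycle and pyruvate entry 10 of 34 rose and 4 fell. OGDH (0.80 ± 0.16) and IDH1 (0.80 ± 0.17) rose and the pyruvate carrier MPC2 fell (−1.66 ± 0.31), though by 0.35 against control 3 alone.

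Stress lists differed in direction, and several values rested on control 3. Of 35 genes of the ATF4 and CHOP arm of the integrated stress response 9 fell and none rose (median −0.33), but 3 fell with the length and GC trend taken out and 1 with the library split as a term. GDF15, a secreted stress hormone, was at 44.2, 22.5 and 63.1 CPM in control and at 14.3, 18.02, 8.76 and 25.5 CPM with preconditioning (−1.38 ± 0.34). Preconditioning 4 was above control 2, so the groups overlapped. The call held, but was lost with the trend taken out (edgeR adjusted p = 0.107). ATF4 itself (−1.11 ± 0.32) and DDIT3, which encodes CHOP (−1.43 ± 0.41), fell, each lost without control 1 or 2 or preconditioning 1, 2 or 3. NUPR1 (−1.88 ± 0.46), another target, was at 3.34 CPM or less in every library. It kept its call without each library but lost it with the library split as a term (edgeR adjusted p = 0.120). Of 22 heat shock genes 4 fell and none rose (median −0.37). HSPA1A, the inducible HSP70, was at 136, 80.3 and 697 CPM in control and at 55.3 to 95.9 CPM with preconditioning. The heat shock median was −1.10 against control 3 alone and 0.21 against control 1 and 2, so its sign depended on the controls used. CHORDC1, a co-chaperone, held (−1.34 ± 0.29) and the small heat shock gene HSPB1 fell (−1.17 ± 0.30).

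In the list for unfolded proteins in the endoplasmic reticulum 7 of 30 genes rose and 4 fell (median −0.02), with 3 higher and 4 lower once the trend was taken out. SEL1L, an adaptor of the degradation of misfolded proteins, rose by 1.24 ± 0.27 and the transcription factor CREB3L2 by 1.06 ± 0.22. Both calls were kept when any 1 library was left out. Both were lost with the library split as a term (edgeR adjusted p = 0.0941 and 0.0626). SELENOK, a selenoprotein of the same membrane, fell (−1.70 ± 0.27) and held. The antioxidant list was split, with 3 of 32 genes higher and 4 lower. The dismutase SOD1 (−1.25 ± 0.23) and the thioredoxin TXN (−1.28 ± 0.29) fell, while PGD (0.57 ± 0.14) and ME1 (0.52 ± 0.14), which make NADPH, and the mitochondrial dismutase SOD2 (0.71 ± 0.22) rose. The PGD call held, that of ME1 was lost without control 1 or 2 or preconditioning 1 and that of SOD2 without control 2 or 3 or preconditioning 1 or 2. HMOX1, which breaks down haem, was at 49.3, 63.4 and 272 CPM in control and at 36.6 to 47.4 CPM with preconditioning, and its fall (−1.70 ± 0.42) was lost without control 3. ANGPTL4, an inhibitor of lipoprotein lipase, was at 91.3 CPM in control 3 and at no more than 5.05 CPM in every other library, and its fall (−4.03 ± 1.01) was lost in the same way. TXNIP, which binds thioredoxin and limits glucose uptake, was not called (−0.23 ± 0.46). Of 24 HIF-1 genes 1 rose and 2 fell, and of 23 glycolysis genes 2 rose, the glucose transporters SLC2A1 (1.00 ± 0.23) and SLC2A3 (1.01 ± 0.26, lost without control 1 or 2), and 2 fell. The immediate early gene FOS fell (−2.67 ± 0.73), which rested on control 2 at 60.0 CPM beside 5.68 and 8.32 CPM in the other controls and 3.52 to 4.20 CPM with preconditioning, and EGR1 was not called (−0.15 ± 0.38). Of 28 BCL2 family and apoptosis genes 1 rose, the caspase activator APAF1 (1.20 ± 0.27), and none fell. The survival genes BCL2L1 (0.03 ± 0.18) and MCL1 (0.46 ± 0.22) were not called.

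Among receptors and signalling genes, 8 of 30 growth factor receptors and LRIG genes rose and none fell (median 0.45, and 0.23 with the length and GC trend taken out). EGFR was at 80.8, 77.1 and 117 CPM in control and at 203, 185, 149 and 141 CPM with preconditioning (0.89 ± 0.18). With that trend taken out, 1 of the 30 was called higher and 1 lower. Of 34 Notch and Wnt genes 9 rose and 2 fell. The receptor NOTCH2 was at 90.3, 77.2 and 209.9 CPM in control and at 553, 493, 328 and 390.4 CPM with preconditioning (1.81 ± 0.31), and NOTCH3 at 8.49, 10.5 and 4.44 against 16.4 to 26.7 CPM (1.55 ± 0.32). The Notch target HES4 fell (−2.20 ± 0.36), with −0.83 against control 3 alone and −2.60 against control 1 and 2. The HES4 call was lost with the library split as a term (edgeR adjusted p = 0.0635), and HES1 was not called (−1.56 ± 0.77). The secreted Wnt inhibitor SFRP1 rose by 1.73 ± 0.32.

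Of 36 TGF-beta and BMP genes 9 rose, with the co-receptor TGFBR3 (1.68 ± 0.29) and the signal transducer SMAD3 (0.77 ± 0.17) held, and 3 fell. With the length and GC trend taken out 3 were higher and 3 lower (median −0.17), and SMAD3 lost its call (edgeR adjusted p = 0.266). In the same fit rises went from 9 to 4 for Notch and Wnt genes, from 7 to 3 for YAP and TGF-beta targets, from 5 to 2 for contractile genes, where MYLK lost its call (edgeR adjusted p = 0.169), and from 4 to 1 for collagen and matrix genes, where NID1 did (0.0705). ID1, a direct BMP target, was at 102, 167 and 80.5 CPM in control and at 18.02, 18.4, 57.5 and 16.1 CPM with preconditioning (−2.08 ± 0.53), lost without control 2. ID3 fell by 1.26 ± 0.38, lost without any of 5 libraries, and the procollagen protease BMP1 by 0.78 ± 0.16. Of 22 YAP and TGF-beta targets 7 rose, TEAD1 (1.01 ± 0.18) and CRIM1 (1.07 ± 0.19) among them, and ANKRD1 fell (−1.84 ± 0.64). Control 3 held ANKRD1 at 27.7 CPM, all other libraries at 2.13 to 4.09 CPM, and its change without control 3 was 0.074. Of 41 collagen and matrix genes 4 rose, with the basement membrane protein NID1 at 0.95 ± 0.18, and the collagen chaperone SERPINH1 (mean 892 against 445.2 CPM) and the proteoglycan BGN (−1.28 ± 0.25) fell. The hyaluronan synthase HAS2 was not called (0.38 ± 0.66), with 8.54, 5.53 and 69.7 CPM in control. Of 20 contractile genes 5 rose, among them the myosin light chain kinase MYLK (1.10 ± 0.22) and caldesmon CALD1 (0.83 ± 0.17), and the tropomyosin TPM2 fell (−1.33 ± 0.35, lost without control 1).

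Of 36 interferon-stimulated genes 4 rose and 4 fell, with OAS3 (1.17 ± 0.24) held, though not called with the trend taken out (edgeR adjusted p = 0.0637). Of 25 NF-kB and cytokine genes 5 rose, led by the adhesion molecule ICAM1 (1.32 ± 0.29) and the subunit RELB (0.94 ± 0.21), and CCL2 fell (−2.99 ± 0.67, lost without control 2). The median of that list was 0.64 against control 1 and 2 and −0.20 against control 3 alone. For DNA replication 9 of 40 genes rose and 3 fell. MCM2, a part of the replicative helicase, was at 72.5, 102 and 86.9 CPM in control and at 206, 223, 239 and 232 CPM with preconditioning (1.37 ± 0.20), and the origin gene ORC1 rose by 0.64 ± 0.15. PCNA, the sliding clamp, fell (−0.86 ± 0.29), lost without any of 6 libraries and at 262 CPM in control 3 beside 291 to 329 CPM with preconditioning. Of 38 mitosis genes 5 rose, DLGAP5 at 1.08 ± 0.17, and 5 fell, UBE2C at −1.67 ± 0.31.

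Of 51 lysosomal genes 13 rose and 5 fell, among them the small pump subunits ATP6V1F (−1.25 ± 0.22) and ATP6V1G1 (−1.13 ± 0.20). In the autophagy list 9 of 39 rose and 5 fell. ATG9A, the membrane carrier that seeds autophagosomes, was at 8.94, 13.8 and 27.5 CPM in control and at 58.1, 58.5, 71.5 and 62.2 CPM with preconditioning (1.90 ± 0.34). Among 40 proteasome genes 9 fell, the core subunits PSMA3 (−1.10 ± 0.21) and PSMB3 (−1.21 ± 0.24) among them, and 5 rose, all of them of the caps or activators, with PSMD1 at 1.04 ± 0.24. Of 45 splicing genes 14 fell, LUC7L at −1.68 ± 0.26, and SON rose (0.59 ± 0.21, lost without 5 libraries). Of 24 snoRNA host genes 11 fell, with SNHG6 at −2.09 ± 0.39 and GAS5 at −1.07 ± 0.23, and SNHG16 rose (0.49 ± 0.16, lost without 6 of the 7 libraries). Of these calls only that of SNHG6 held. The snoRNA host median was −0.95 against control 3 alone, −0.75 against control 1 and 2 and −0.79 with the length and GC trend taken out.

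Set side by side, the lists differed in how far they rested on control 1 and 2. The medians of the mevalonate and late sterol lists were as large against control 3 alone as against the other controls. The snoRNA hosts and ATF4 targets were lower against each, though only 1 call in each of these lists held. The medians of mitochondrially encoded mRNAs, complex IV and the ATP synthase had the same sign against each but were −0.83, −0.43 and −0.39 against control 3 alone and −2.72, −1.36 and −1.09 against control 1 and 2. The medians of complex I (−0.44 and −0.92), the large ribosomal subunit (−0.54 and −0.99), ATF4 targets (−0.62 and −0.15) and growth factor receptors (0.29 and 0.79) also kept their sign but not their size. Of 59 lists 18 had medians of opposite sign against control 3 alone and against control 1 and 2. Besides heat shock and NF-kB genes they were ribosome biogenesis (−0.47 and 0.18), tRNA synthetases (−0.33 and 0.26), HIF-1 (0.56 and −0.25), MAPK feedback (−0.41 and 0.48), collagen and matrix (0.44 and −0.13), matrix proteases (−0.06 and 0.54), calcium uptake and carriers (0.02 and −0.48) and mitochondrial expression (−0.35 and 0.03). The others were mitochondrial chaperones (−0.27 and 0.20), mitophagy (0.08 and −0.28), the unfolded protein response (−0.17 and 0.19), antioxidants (0.15 and −0.06), DNA replication (0.21 and −0.09), translation factors (−0.12 and 0.16), apoptosis (−0.09 and 0.12) and the clock (0.10 and −0.02). No difference between these medians was tested.

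**Figure D5:**
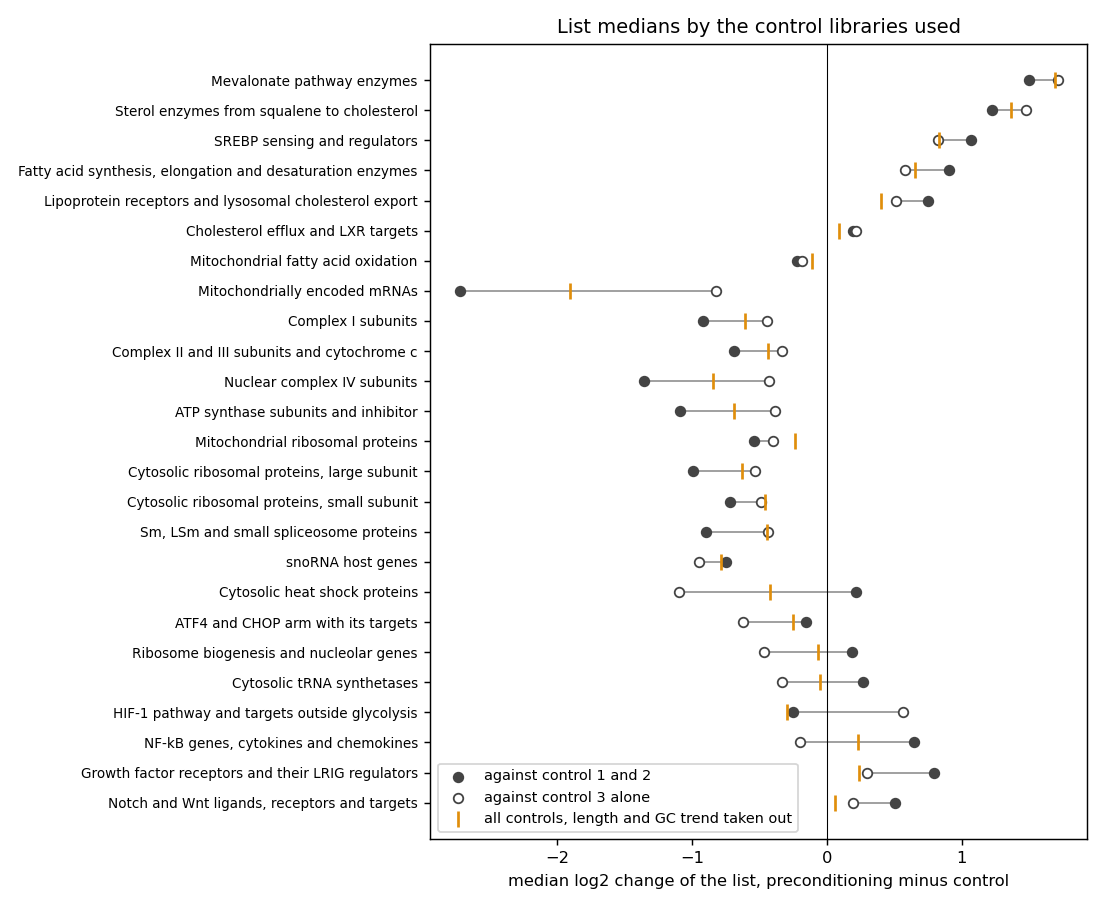
Median log2 change of each list, preconditioning minus control (x axis), against control 1 and 2 (filled points), against control 3 alone (open points) and against all controls with the length and GC trend taken out (orange ticks). The sterol lists stay between 1.23 and 1.71, the mitochondrially encoded mRNAs spread from −2.72 to −0.83, and the heat shock list crosses zero, from 0.21 to −1.10.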

How the data were processed

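The authors deposited unnormalized counts of reads by gene. The submitters' processing notes name HTSeq, HISAT2 and human hg19 with no version. Each table of counts held 63241 Ensembl gene IDs, of which GENCODE 29 lacks 5013. The annotation release is therefore unsettled, and coordinates are given only for RefSeq promoters. Symbols were found for 42338 IDs. Rows that name no gene entered neither library sizes nor tests: 2.13% to 5.20% of reads lay outside genes, 11.0% to 12.2% overlapped several genes and 3.16% to 11.5% aligned to several places. Whether counting used strand is not stated in the labels, so overlapping antisense genes may not have been told apart.

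Counts of all 13 libraries were scaled with TMM factors, filtered with edgeR's default (16756 genes) and tested by quasi-likelihood in edgeR (4.0.16, R 4.3.3) in 1 fit with a term per group, which shares the spread of all groups, adjusted by Benjamini-Hochberg over all genes. The SE is the absolute log2 change over the square root of F, and CPM values are not corrected for length. No libraries of a group agreed within sampling noise (lowest chi-square per degree of freedom 3.32). This ratio was 22.1 for control 1 against control 2, and 167 and 153 for control 1 and 2 against control 3. Between preconditioning libraries it ran from 3.32 to 32.0, so the compared groups differed in spread. In simulated counts of 16756 genes the fit of this comparison recovered 28% of 100 genes changed 2-fold and 69% of 100 changed 4-fold, with 3 false calls. The 3 false calls describe simulated counts and give no rate for these data, where the control libraries were not alike. The library split lies at 6.17% of multiply aligned reads, between 5.22% and 7.13%. The length and GC trend was fitted per library with mgcv (1.9.3), over the 16163 tested genes that have both values. Length is that of the longest transcript, which need not be the one expressed, so the trend may be removed only in part. DESeq2 (1.42.0) and limma-voom (3.58.1) were alternatives.

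The comparison, its 64 gene lists (1719 genes, 1627 tested) and the alternatives were chosen with earlier results of these data known. Named genes are the 10 largest held rises and falls with at least 5 mean CPM in a group and no overlap, up to 3 called members per list by adjusted p (2 values where none was called), members called against their list and 27 fixed genes; some genes are not reported here. Further list members in the text were chosen after their values were seen. The refit against control 3 alone was added after the data were seen, and assumes that it varies like the libraries of the other groups.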

Additional observations from a re-analysis of the deposited data

Results flagged for a closer look

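In 26 genes named by the rule 1 preconditioning library stood apart from the other 3, by a gap that exceeded Dixon's 95% value for its share of the group's range, a test that flags about 1 group in 20 by chance, over 260 genes here. The ratio of gap to range is given after each gene. Preconditioning 3 was the lowest for the sterol genes HMGCS1 (0.923), MSMO1 (0.839), DHCR7 (0.876) and INSIG1 (0.836), for MT-TP (0.832), ICAM1 (0.844), RELB (0.920), CTSK (0.886), WIPI1 (0.831), VMP1 (0.929) and NPIPA5 (0.851). It was the highest for ID1 (0.943), ID3 (0.926), ADM (0.861), HMOX1 (0.987), HSPB1 (0.838), MICOS13 (0.961), MRPL49 (0.842), MCM4 (0.981), OGDH (0.855) and SNHG19 (0.856). HMGCS1 was at 230.4 CPM there and at 464 to 483 CPM in the other preconditioning libraries, and ID1 at 57.5 against 16.1 to 18.4 CPM. Preconditioning 2 was the highest for CPT1A (0.931), and preconditioning 4 the highest for SLC39A10 (0.917) and UCP2 (0.977) and the lowest for MYLK (0.851) and VIM (0.861). The share of reads that overlapped several genes was also highest in 1 of the 4 libraries (0.942), preconditioning 3, at 11.7% against 11.0% in each of the others.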

How the results depend on the processing

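The 3950 calls became 1563 to 6022 when 1 library was left out, lowest without control 1 (1950 without control 2, 2282 and 2410 without preconditioning 1 and 2) and highest without control 3. They were 459 with the library split as a term, 148 against control 3 alone, 2608 with the length and GC trend taken out, 1424 at an adjusted p under 0.01 and 1922 with a log2 change of at least 1. DESeq2 called 4697 and limma-voom 4007. Scaling by totals alone, which shifts the median of all genes by 0.11, made 55.2% of calls higher, against 44.7%. No call of the main fit was called in the opposite direction under any of these. Called genes that changed sign were PCNA (0.20), H1-10 (0.57) and MAP1LC3A (0.065) against control 3 alone, PCNA with the library split as a term (0.012) and ANKRD1 (−2.32 to 0.074 without 1 library each, the latter without control 3). The cause was not tested.

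Replicate numbers did not pair the libraries, with correlations of same-numbered deviations of −0.07, −0.08 and −0.05, none of them the highest of its control. With a replicate block 1840 genes were called.

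Of 245 called genes named by the rule 149 kept their calls without each library. In the simulated counts most 2-fold changes were missed at this depth and spread.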

Other observations

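Further held genes were chosen here after their values were seen. CHD4, the motor of the NuRD chromatin remodelling complex, was at 109.6, 83.8 and 41.4 CPM in control and at 18.1, 17.9, 15.7 and 15.96 CPM with preconditioning (−2.21 ± 0.28), so every preconditioning library was below every control library. UBE4A, a ubiquitin ligase, rose by 2.32 on the log2 scale and PNPLA3, a lipid droplet lipase and SREBP target, by 2.19. The droplet coat gene PLIN2 fell by 1.55. PFDN2 (−1.96) and PFDN6 (−2.04), subunits of the prefoldin complex that hands actin and tubulin to their folding chamber, both held as falls.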
